A study of Mus musculus with 6 samples.

Results

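The Hox genes of the mouse were examined for chromatin accessibility in small intestinal organoids given RANKL and in control organoids. They were taken as the protein-coding genes of the GRCm38 annotation whose symbol is Hoxa, Hoxb, Hoxc or Hoxd followed by a number, which gave 39 of 21896 protein-coding genes. The measured regions were the 26 of 55056 deposited windows of 200 bp whose nearest protein-coding gene end was that of a Hox gene, at no more than 50 kb from the centre of the window. By the same distance rule, 38490 windows belonged to some protein-coding gene. The 26 windows fell to 19 Hox genes, and the remaining 20 Hox genes had no window and so no measurement.

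The assay was bulk ATAC-seq, in which the Tn5 transposase cuts open chromatin and the number of reads in a region measures how accessible it is. RANKL, a cytokine of the tumour necrosis factor family that drives intestinal epithelium towards microfold (M) cells, was given to 3 libraries at 100 ng/ml for 6 days; these organoids had first received 3 µM CHIR99021, an inhibitor of GSK3, with 1.5 mM valproic acid, an inhibitor of histone deacetylases, for 3 days and then ENR medium for a day. The 3 control libraries were from organoids kept in ENR medium (EGF, Noggin and R-spondin 1) and taken at day 6. The labels name the control libraries CVENR without explaining it and do not say whether the controls received CHIR99021 and valproic acid, so the effects of RANKL and of this pretreatment cannot be told apart. Both groups came from line26, named wild type in the labels, which carries the Lgr5GFPDTR/+ reporter allele and was derived from 1 female mouse. Replicates 1, 2 and 3 are independent differentiation experiments on that line and not separate animals, so the p-values speak for the spread between experiments on 1 line.

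Hox genes encode homeodomain transcription factors and stand in 4 clusters on separate chromosomes. Within a cluster the genes are numbered in the order in which they are used along the body from head to tail, and genes with the same number in different clusters are paralogues. In the gut, Hox genes pattern the segments during development, in mesenchyme as well as in epithelium, and the clusters are kept silent where they are not used by the Polycomb group proteins. Hox proteins bind DNA together with partners of the TALE family (Pbx, Meis and Pknox), and Cdx factors and retinoic acid are known to switch Hox genes on.

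Among the Hox promoters with a sequence entry, windows reached those of Hoxa5 and Hoxd4 only. These promoters are shown because they place the measured bases relative to the transcription start. Promoter sequences matched 22 of the 39 Hox genes, with 24 entries in all. The remaining Hox genes, Hoxb9 and Hoxc6 among them, had no entry, so whether a window reached their promoters was not examined. Each runs 5′ to 3′ along the strand of the gene, from upstream of the transcription start to shortly after it, in RefSeq's GRCm38.p6; capitals mark the bases that lie inside the 200-bp window. The Hoxa5 promoter is chr6:52204538-52204837 on the minus strand, with 75 bases inside the window, and the Hoxd4 promoter is chr2:74721728-74722027 on the plus strand, with 87 bases inside.
Hoxa5: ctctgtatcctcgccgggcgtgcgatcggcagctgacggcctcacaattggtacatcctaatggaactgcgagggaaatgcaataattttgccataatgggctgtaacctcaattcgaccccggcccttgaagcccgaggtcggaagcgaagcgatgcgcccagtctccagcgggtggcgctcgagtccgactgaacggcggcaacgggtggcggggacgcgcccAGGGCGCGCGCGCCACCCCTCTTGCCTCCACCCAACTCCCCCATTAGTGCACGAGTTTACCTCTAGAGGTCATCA
Hoxd4: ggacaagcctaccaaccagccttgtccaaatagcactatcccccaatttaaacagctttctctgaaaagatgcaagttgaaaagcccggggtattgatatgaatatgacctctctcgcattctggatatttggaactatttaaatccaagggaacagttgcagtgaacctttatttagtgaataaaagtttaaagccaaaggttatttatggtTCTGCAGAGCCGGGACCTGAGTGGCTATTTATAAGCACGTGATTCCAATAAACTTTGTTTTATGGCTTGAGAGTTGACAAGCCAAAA
The base composition of these promoters differed, with a GC content of 61.7% at Hoxa5 and 39.7% at Hoxd4, against a median of 57.7% over the 24 Hox promoters and 52.7% over 32851 promoters in all. The letters TTTATGG, the site of Cdx and posterior Hox proteins, were searched on both strands and occurred at 2 places in the Hoxd4 promoter, of which 1 lay inside the window. The Hoxd4 promoter was the only 1 of the 24 Hox promoters with these letters, which 2.75% of all promoters held. An NF-kB motif, with 4 free bases in its middle, occurred at 1 place in the Hoxa5 promoter, outside the window, and was found in 8 of 24 Hox promoters and in 20.7% of all. TGATTNAT (Hox with Pbx), TGANTCA (AP-1) and a CTCF motif were in neither of the printed promoters; they were in 3.22%, 7.81% and 0.0791% of all promoters.

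The clusters also hold microRNA genes, and 5 of the 26 windows lay within 5 kb of one. Their main mature forms are shown because they fall into seed families that repeat across clusters, as the Hox genes do; capitals mark the seed, bases 2 to 8.
mmu-miR-10a-5p: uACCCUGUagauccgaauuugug
mmu-miR-10b-5p: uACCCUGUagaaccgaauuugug
mmu-miR-196a-5p: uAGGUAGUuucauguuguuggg
mmu-miR-196b-5p: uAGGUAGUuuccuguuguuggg
The miR-10 pair shares the seed ACCCUGU and the miR-196 pair the seed AGGUAGU. Mir10b lay 3930 bp from the Hoxd4 window and Mir10a 2185 bp from the Hoxb4 window. Mir196b lay 102 bp from a Hoxa10 window and Mir196a-1 lay 1184 bp from a Hoxb9 window, while Mir615 lay 384 bp from the Hoxc5 window. Accessibility in these windows is not a measure of the microRNAs themselves.

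Depth limited every value. The libraries held 322173, 466521 and 828445 counts in RANKL replicates 1, 2 and 3, against 920681, 976881 and 455083 counts in control replicates 1, 2 and 3. CPM at 200 bp are counts scaled to a library's counts in the windows deep enough to test, 248535 to 751693, and not to these totals. A count of 3 was taken as the detection floor. It was worth 4.92 to 12.2 CPM in RANKL libraries and 3.95 to 8.49 CPM in control libraries. The Hox windows together held 89, 163 and 290 counts in RANKL libraries and 332, 377 and 130 counts in controls. As a share of the library this was 0.0276% to 0.0350% in RANKL libraries and 0.0286% to 0.0386% in control libraries, and the Wilson 95% intervals, which cover counting error only, ran from 0.0225% to 0.0407% over the RANKL libraries and from 0.0241% to 0.0427% over the controls. Of the 10 listed epithelial symbols, markers of the labelled tissue, Villin is not an annotated gene symbol. Windows of the other 9 summed to 1122 to 1281 CPM in RANKL libraries and 1248 to 1290 CPM in control libraries. Of these, 8 were deep enough for the gene test and Krt18, an epithelial keratin, was called lower (log2 fold change −0.84; edgeR, adjusted p = 0.000571), with none higher. The 10 M cell markers summed to 785, 1001 and 824 CPM in RANKL libraries and to 541, 485 and 484 CPM in controls, and 4 of the 7 tested (Sox8, Msln, Marcksl1 and Tnfrsf11a) were called higher in the gene test described below, with none lower.

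The 26 windows were spread unevenly over the clusters. Hoxa, on chromosome 6, had 11 windows at 7 of its 11 genes. Hoxb, on chromosome 11, had 5 windows at 4 of 10 genes. Hoxc, on chromosome 15, had 6 windows at 5 of 9 genes, and Hoxd, on chromosome 2, had 4 windows at 3 of 9 genes. No window belonged to a gene of paralogue number 2, 7 or 12. Within the clusters the annotated genes overlap: Hoxa3 spans Hoxa4, Hoxa5 and Hoxa6, Hoxb3 spans Hoxb4, and Hoxd3 spans Hoxd4. A window is therefore named here for the nearest annotated gene end, which need not be the promoter it serves. Of the 26 windows, 14 had their centre inside the gene they were named for and 15 inside some protein-coding gene, while 16 overlapped a protein-coding gene and 11 an annotated non-coding gene by at least 1 base.

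As levels, the Hox windows were neither the most nor the least open of the data set. The windows' percentiles among all 55056 windows, by mean CPM over the 6 libraries, had a median of 51.6. Hoxb4 was at the low end, with a mean of 3.89 CPM at percentile 4.59, and Hoxd3 was among the more open, with 31.3 CPM at percentile 75.6. Of the windows described here, the farthest within the limit was that of Hoxa13 at 10108 bp, with 28.5, 28.9 and 16.4 CPM in RANKL libraries and 25.8, 34.2 and 28.3 CPM in controls. A Hoxc4 window at 53616 bp lay outside it, with 8.14, 2.89 and 1.64 CPM in RANKL libraries and 5.73, 13.2 and 2.83 CPM in controls. In both the groups overlapped.

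**Figure D1:**
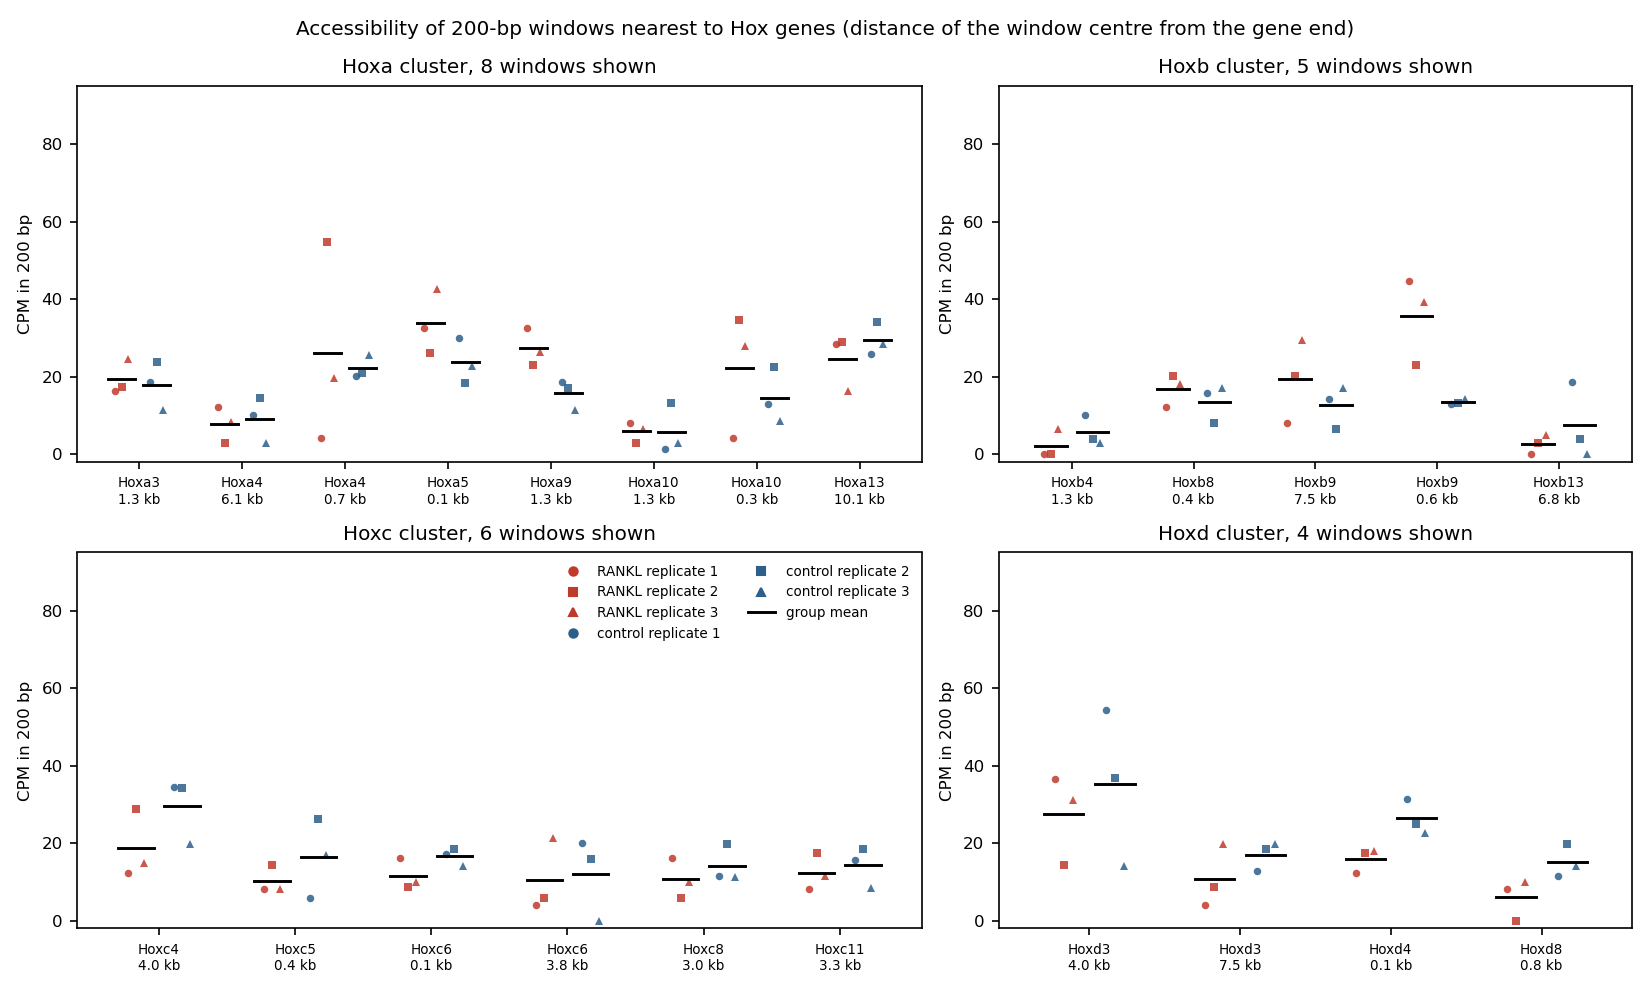
CPM in 23 of the 26 Hox windows of 200 bp (y axis), in order of paralogue number within each cluster panel; each tick gives the nearest gene and the distance of the window centre from its end. Red symbols are RANKL libraries, blue symbols control libraries, the shape gives the replicate number and the bar the group mean. At Hoxb9, 0.6 kb, all 3 RANKL libraries stand above the 3 controls, and at Hoxd4, 0.1 kb, all 3 stand below them.

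Across the clusters, accessibility of the Hox windows as a whole differed little between the groups. The 26 windows summed to 362, 470 and 475 CPM in RANKL libraries, against 475, 496 and 368 CPM in control libraries. The groups overlapped, and the ratio of the means was −0.03 on the log2 scale. In these bulk libraries, fewer cells with an open site and a site less open in each cell cannot be told apart.

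Among the 11 Hox genes deep enough for the gene test, Hoxb9 was the only 1 called higher in RANKL libraries (edgeR). The called window (chr11:96271826-96272025) lay inside the gene, 595 bp from its end at position 96271330, the end towards Hoxb13. A gene end here is either edge of the annotated gene, so it can be the start of the gene. Hoxb9 encodes a posterior Hox protein that, with its paralogues, patterns the thoracic skeleton of the mouse. The window held 44.7, 23.1 and 39.3 CPM in RANKL replicates 1, 2 and 3, from 11, 8 and 24 counts, against 12.9, 13.2 and 14.1 CPM in control replicates 1, 2 and 3, from 9, 10 and 5 counts. All 3 RANKL libraries were above all 3 controls, and RANKL replicate 2 was the lowest of the treated libraries. The means were 35.7 ± 11.3 CPM in RANKL libraries and 13.4 ± 0.662 CPM in control libraries (SD, n = 3 each). The log2 fold change was 1.41 ± 0.46 (SE), and the adjusted p was 0.0163 in edgeR's quasi-likelihood test with Benjamini-Hochberg adjustment over 21618 windows.

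The other Hoxb9 window, 7450 bp outside the gene on the side of Hoxb13 and beside Mir196a-1, held 8.14, 20.2 and 29.5 CPM in RANKL libraries, against 14.3, 6.58 and 16.97 CPM in controls. These values overlapped, and the window was too shallow for the test at 200 bp. The Hoxb9 windows together held 52.9, 43.3 and 68.8 CPM in RANKL libraries, against 27.2, 19.7 and 31.1 CPM in control libraries, with no overlap. In the gene test, which sums the windows of each gene, the log2 fold change was 1.10 ± 0.36 (SE; edgeR, adjusted p = 0.0195 over 12463 genes).

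The Hoxb9 call at 200 bp was close to the threshold. With the replicate number as a block the adjusted p was 0.0528 for the window and 0.0591 for the gene, and with DESeq2 it was 0.0681 and 0.0946. Without RANKL replicate 1, control replicate 1 or control replicate 2 the adjusted p of the window was 0.0658, 0.0651 and 0.0711, and without RANKL replicate 3 the window was too shallow to test; the log2 fold change stayed between 1.27 and 1.62 wherever it was tested. For the gene the call was lost without RANKL replicate 3 (log2 fold change 0.85, adjusted p = 0.252), without control replicate 1 (1.16, adjusted p = 0.0503) and without control replicate 2 (0.90, adjusted p = 0.123).

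Of the 26 Hox windows, 10 were deep enough for the test at 200 bp, against 39.3% of all windows. Among these 10, Hoxb9 was called higher and none was called lower (edgeR); at an unadjusted p below 0.05 the counts were also 1 higher and 0 lower, and DESeq2 called none in either direction. Over all tested windows 10.0% were called higher and 10.0% lower, and the Hox counts were near or below this background. Of the 19 Hox genes with a window, 11 were deep enough for the gene test, and again Hoxb9 was called higher and none lower, against 7.02% of all tested genes higher and 8.30% lower. At an unadjusted p below 0.05 the counts were the same, and DESeq2 called no Hox gene in either direction. The median log2 fold change was 0.43 over the 10 tested Hox windows, of which 6 were in Hoxa, and 0.01 over all tested windows; it was −0.05 over the 11 tested Hox genes and 0.01 over all tested genes, so the Hox medians of windows and genes differed in sign.

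The deposited 2-kb windows around the same centres hold more reads and allowed all 26 to be tested. Their CPM are scaled to each library's counts in the tested 2-kb windows. CPM at the 2 widths thus have different denominators and cannot be set against each other. Hoxb9 was again higher at its window 595 bp from the gene end, with 42.2, 19.5 and 25.0 CPM in RANKL libraries, against 14.4, 12.9 and 9.43 CPM in control libraries. No RANKL library overlapped a control. The log2 fold change was 1.12 ± 0.30 (SE; edgeR, adjusted p = 0.00424), and it was called with the replicate block (adjusted p = 0.0048), with DESeq2 (0.00995) and with offsets that follow abundance (0.00195). Only without RANKL replicate 1 was the call lost (log2 fold change 0.83, adjusted p = 0.0654).

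Hoxd4, which helps to pattern the hindbrain and the neck vertebrae of the mouse, was the only Hox gene called lower in RANKL libraries at this width (edgeR). Its window covers the transcription start (chr2:74721941-74722140) and takes in the end of the promoter printed above, including a TTTATGG. In 2 kb it held 13.7, 16.6 and 11.6 CPM in RANKL libraries, against 28.4, 27.5 and 29.2 CPM in control libraries. The controls lay within a narrow range and every RANKL library was well below it. The means were 14.0 ± 2.50 CPM in RANKL libraries and 28.4 ± 0.896 CPM in control libraries (SD, n = 3 each). On the log2 scale RANKL libraries differed from controls by −1.04 ± 0.28 (SE), which passed edgeR's test at an adjusted p of 0.00475 among 49935 windows. The call held with the replicate block (adjusted p = 0.0111), with DESeq2 (0.0120) and with offsets that follow abundance (0.0233), and was lost without RANKL replicate 3 (log2 fold change −0.84, adjusted p = 0.0713).

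In the central 200 bp of the same site, Hoxd4 held 12.2, 17.3 and 18.02 CPM in RANKL libraries, against 31.5, 25.0 and 22.6 CPM in controls. The groups did not overlap there either, but the counts were 3, 6 and 11 in RANKL libraries and 22, 19 and 8 in controls, and the log2 fold change of −0.70 ± 0.47 (SE) did not pass the test (edgeR, adjusted p = 0.320).

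At 2 kb the Hox calls were thus Hoxb9 higher and Hoxd4 lower, 1 of 26 in each direction, against 8.37% of all tested 2-kb windows called higher and 10.2% called lower. At an unadjusted p below 0.05 there was 1 higher and there were 2 lower, the additional one being Hoxc4. The median log2 fold change over the 26 windows was 0.01, as it was over all tested 2-kb windows (0.01). The 2 widths also differed in how reads were placed: the central 200 bp held 26.2%, 31.8% and 35.1% of the 2-kb reads of the Hox windows in RANKL libraries, against 40.6%, 39.7% and 38.9% in control libraries, and 33.9% to 36.5% against 39.9% to 41.0% over all windows. The part of this difference in the results at 200 bp was not tested.

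**Figure D2:**
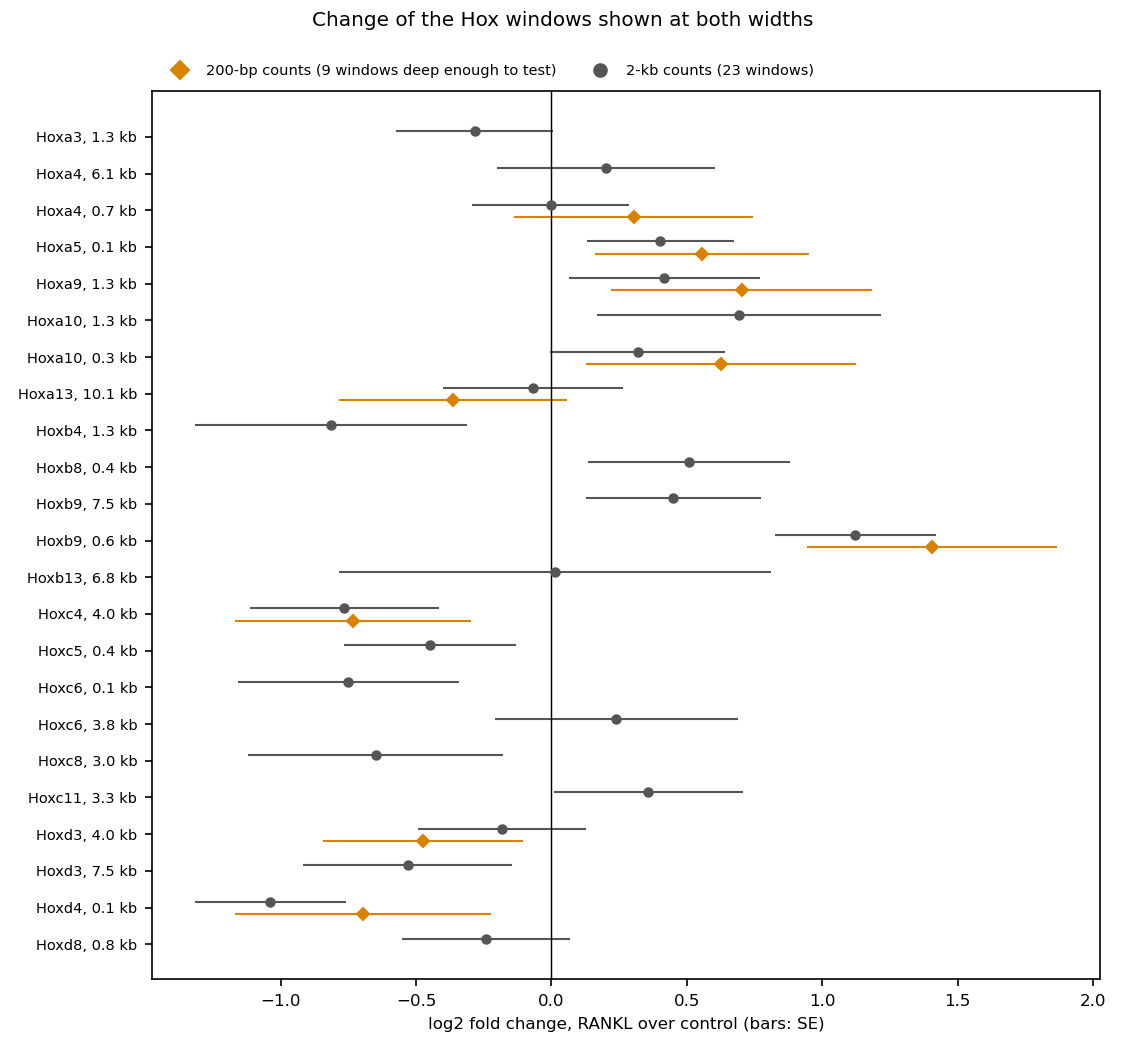
Log2 fold change, RANKL over control, of 23 of the 26 Hox windows (x axis; bars are SE) at 2 kb in grey and at 200 bp in orange where the window was deep enough to test. Hoxb9 at 0.6 kb lies at 1.12 in 2 kb and 1.41 in 200 bp, and Hoxd4 at 0.1 kb lies at −1.04 and −0.70.

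The Hoxa cluster held the most windows and had no call at either width. Hoxa4, which patterns the neck region, had 2 windows, and its reads were spread widely over the RANKL libraries. Its window 743 bp inside the gene held 4.07, 54.8 and 19.7 CPM in RANKL libraries, against 20.0, 21.0 and 25.5 CPM in controls. The controls were close together while RANKL replicate 1, with a count of 1, and RANKL replicate 2, with a count of 19, lay far apart on either side. Over both windows of the gene, the log2 fold change was 0.04 ± 0.39 (SE; edgeR, adjusted p = 0.959). At Hoxa10, known from the patterning of the lumbar spine and the uterus, the window inside the gene held 4.07, 34.6 and 27.9 CPM in RANKL libraries, against 12.9, 22.4 and 8.49 CPM in controls, with RANKL replicate 1 again the lowest.

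Hoxa5, which in the mouse is needed for the lung and for the maturation of the intestine, had 1 window, at its promoter (chr6:52204413-52204612). It held 32.5, 25.97 and 42.6 CPM in RANKL libraries, against 30.1, 18.4 and 22.6 CPM in control libraries. The groups overlapped through RANKL replicate 2, and the log2 fold change of 0.56 ± 0.39 (SE) in the window fit did not pass the test (edgeR, adjusted p = 0.343; 0.345 in 2 kb). Hoxa9, a posterior gene and paralogue of Hoxb9, held 32.5, 23.1 and 26.2 CPM in RANKL libraries, against 18.6, 17.1 and 11.3 CPM in controls at its window 1289 bp outside the gene. All RANKL libraries were above all controls, but the log2 fold change of 0.70 ± 0.48 (SE) did not pass the test (edgeR, adjusted p = 0.326), and in 2 kb the groups overlapped. At the Hoxa13 window described above, near a gene of the hindgut and the digits, the groups overlapped. The window named for Hoxa3 was too shallow to test, with 16.3 to 24.6 CPM in RANKL libraries and 11.3 to 23.7 CPM in controls.

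In the Hoxb cluster, reads of the RANKL libraries came mainly from Hoxb9, with a mean of 55.0 of 76.6 CPM. In controls Hoxb9 held a mean of 26.0 of 52.7 CPM. Hoxb8, which patterns the trunk and is known for its role in myeloid progenitors, held 12.2, 20.2 and 18.02 CPM in RANKL libraries, against 15.8, 7.89 and 16.97 CPM in control libraries at a window 439 bp outside the gene. The groups overlapped. Hoxb4, known from blood stem cells, held 0, 0 and 6.55 CPM in RANKL libraries and 10.0, 3.95 and 2.83 CPM in controls, and Hoxb13, known from the prostate and the tail, held 0, 2.89 and 4.92 CPM in RANKL libraries and 18.6, 3.95 and 0 CPM in controls. These are counts of at most 4 in the RANKL libraries, at or near the floor. In 2 kb, both Hoxb9 windows had all RANKL libraries above the controls, with 17.1, 16.6 and 19.0 CPM in RANKL libraries and 13.9, 12.4 and 12.3 CPM in controls at the window 7450 bp away (edgeR, adjusted p = 0.376), while the Hoxb4 window had all of them below.

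The Hoxc windows had a lower mean in RANKL libraries at all 6 places at 200 bp, and none was called. Hoxc4, the lowest-numbered gene of the cluster, was the most open of them (chr15:103032770-103032969), with 12.2, 28.9 and 14.7 CPM in RANKL libraries, against 34.4, 34.2 and 19.8 CPM in controls. The groups overlapped through RANKL replicate 2 and control replicate 3. The log2 fold change was −0.73 ± 0.44 (SE; edgeR, adjusted p = 0.244) at 200 bp and −0.77 ± 0.35 (SE; edgeR, adjusted p = 0.123) in 2 kb. Hoxc6, a gene of the thoracic region, held 20.3, 14.4 and 31.1 CPM over its windows in RANKL libraries, against 37.2, 34.2 and 14.1 CPM in control libraries, which overlapped (log2 fold change −0.44 ± 0.44, SE; edgeR, adjusted p = 0.547). Hoxc5, Hoxc8 and Hoxc11 were too shallow for the test, at 5.77 to 17.3 CPM in RANKL libraries and 5.73 to 26.3 CPM in controls. In 2 kb, Hoxc5 and Hoxc8 had all RANKL libraries below the controls, without passing the test (edgeR, adjusted p = 0.370 and 0.385), and the mean over RANKL libraries was lower at 4 of the 6 windows.

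The Hoxd windows had a lower mean in RANKL libraries at all 4 places at both widths. Hoxd3, an anterior gene that patterns the first neck vertebra, held 36.6, 14.4 and 31.1 CPM in RANKL libraries at its more open window (chr2:74715879-74716078), against 54.4, 36.8 and 14.1 CPM in control libraries. Control replicate 3 and RANKL replicate 2 were alike and lowest, so the groups overlapped. Over both Hoxd3 windows the log2 fold change was −0.52 ± 0.31 (SE; edgeR, adjusted p = 0.269). Hoxd8, a central gene of the trunk, held 8.14, 0 and 9.83 CPM in RANKL libraries, against 11.5, 19.7 and 14.1 CPM in controls; the groups did not overlap, at counts of 2, 0 and 6 against 8, 15 and 5, and the window was too shallow to test. In 2 kb the Hoxd8 groups overlapped (log2 fold change −0.24, edgeR, adjusted p = 0.664).

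Over all members, the mean was higher in RANKL libraries at 10 of 26 windows at 200 bp, of which 7 of 11 were in Hoxa, 3 of 5 in Hoxb, 0 of 6 in Hoxc and 0 of 4 in Hoxd; over all windows 49.5% had a higher mean in RANKL libraries. At 2 kb it was higher at 13 of 26. All RANKL libraries stood above all controls at 2 of 26 windows (Hoxb9 and Hoxa9), against 13.6% of all windows, and below them at 3 of 26, Hoxd4 and Hoxd8 among them, against 11.5%. In 2 kb the counts were 2 above and 4 below, against 15.7% of all windows each way. These shares are near the background and are no result about the Hox genes.

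Summed by cluster, the Hoxb windows were higher and the Hoxd windows lower in RANKL libraries, without overlap in the 2-kb counts. Each sum contains the window called in 2 kb, Hoxb9 or Hoxd4, and is no result separate from that call. In 2 kb, only Hoxb9 windows in Hoxb had all RANKL libraries above the controls, and Hoxb4 had them below. Among the Hoxd windows, only Hoxd4 had no overlap in 2 kb. No test was made on a sum over members. The Hoxb windows summed to 65.1, 66.4 and 98.3 CPM in RANKL libraries, against 71.6, 35.5 and 50.9 CPM in control libraries at 200 bp, and to 87.9, 65.7 and 65.1 CPM, against 54.9, 52.8 and 44.3 CPM, in 2 kb. They overlapped at 200 bp through control replicate 1 and did not overlap in 2 kb, with log2 ratios of 0.54 and 0.53. The Hoxd windows summed to 61.0, 40.4 and 78.6 CPM in RANKL libraries, against 110, 100.0 and 70.7 CPM in control libraries at 200 bp, and to 50.2, 57.1 and 59.1 CPM, against 84.6, 82.8 and 70.8 CPM, in 2 kb. They overlapped at 200 bp through RANKL replicate 3 and control replicate 3 and not in 2 kb, with log2 ratios of −0.64 and −0.52.

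The other clusters overlapped at both widths. Hoxa summed to 171, 283 and 223 CPM in RANKL libraries, against 189, 228 and 175 CPM in controls at 200 bp, a log2 ratio of 0.19 that became −0.01 without RANKL replicate 2. Hoxc summed to 65.1, 80.8 and 75.4 CPM in RANKL libraries, against 105, 133 and 70.7 CPM in controls, a log2 ratio of −0.48, and −0.25 in 2 kb. At 200 bp, control replicate 3 was the lowest control in the Hoxa, Hoxc and Hoxd sums, and control replicate 2 in the Hoxb sum.

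**Figure D3:**
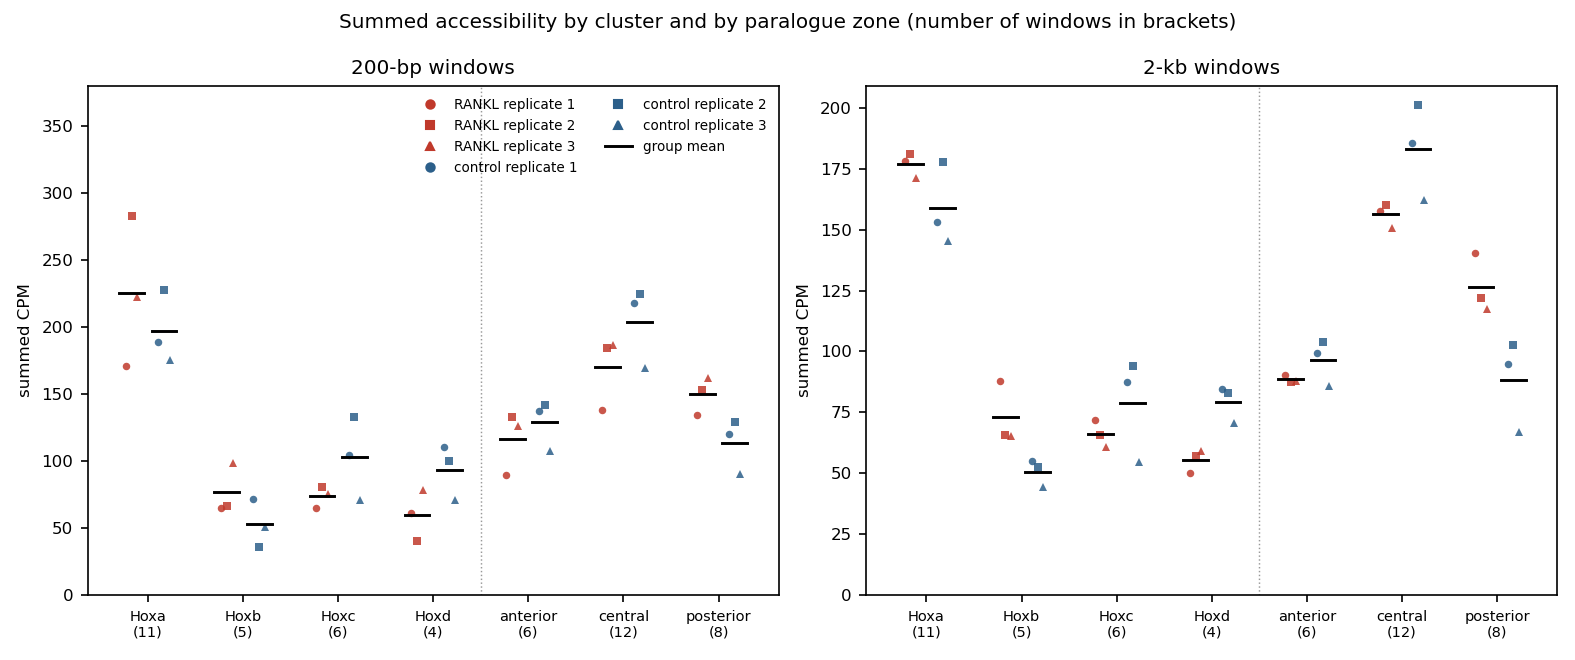
Summed CPM of the Hox windows by cluster and by zone of paralogue numbers (anterior 1 to 3, central 4 to 8, posterior 9 to 13), at 200 bp on the left and in 2 kb on the right, with the number of windows in brackets; red is RANKL, blue is control, and bars are group means. The posterior sums of the 3 RANKL libraries lie above those of the 3 controls at both widths. They include the called Hoxb9 window.

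By paralogue number, the sum over posterior genes was higher in all RANKL libraries than in any control, and that over central genes was lower in 2 kb. These sums contain the called windows of Hoxb9 and Hoxd4 and are no results separate from those calls. By cluster, the posterior groups were apart in Hoxb only, and they overlapped in Hoxa and Hoxc at both widths. In 2 kb the central windows were higher in RANKL libraries in Hoxa and lower in Hoxd, and they overlapped in Hoxb and Hoxc. The 8 posterior windows (numbers 9 to 13) summed to 134, 153 and 162 CPM in RANKL libraries, against 120, 129 and 90.5 CPM in control libraries at 200 bp. They did not overlap there, nor in 2 kb, where they were 140, 122 and 117 CPM in RANKL libraries, against 94.9, 103 and 67.0 CPM in controls; the log2 ratios were 0.40 and 0.52. The 12 central windows (numbers 4 to 8) summed to 138, 185 and 187 CPM in RANKL libraries, against 218, 225 and 170 CPM in controls at 200 bp, which overlapped through control replicate 3. In 2 kb they were 158, 160 and 151 CPM in RANKL libraries, against 186, 201 and 162 CPM in controls, with no overlap and a log2 ratio of −0.23. The 6 anterior windows (numbers 1 to 3) overlapped at both widths, with log2 ratios of −0.15 and −0.12.

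Within the posterior zone, only paralogue number 9, that is Hoxb9 and Hoxa9, had groups without overlap at 200 bp. The window named for Hoxa9 lay outside any protein-coding gene. Among the promoter entries, its nearest Hox transcription start was that of Hoxa7, at 3235 bp. Its 3 windows summed to 85.4, 66.4 and 95.03 CPM in RANKL libraries, against 45.8, 36.8 and 42.4 CPM in control libraries, a log2 ratio of 0.98, and in 2 kb to 78.8, 49.8 and 58.2 CPM, against 37.7, 39.0 and 33.0 CPM, a log2 ratio of 0.77. Neither width showed an overlap. The ratio at 200 bp stayed between 0.87 and 1.10 when any library was left out. Number 9 was singled out after the values were seen and holds the called Hoxb9 window, so this range is no separate support. Number 10 (0.46), number 11 (−0.21) and number 13 (−0.44) had log2 ratios of either sign at 200 bp, and their groups overlapped. Among the central numbers, number 8 had no overlap at 200 bp, with 36.6, 25.97 and 37.7 CPM in RANKL libraries, against 38.7, 47.4 and 42.4 CPM in control libraries; in 2 kb it overlapped (log2 ratio −0.09). The central Hoxd windows, Hoxd4 and Hoxd8, summed to 20.3, 17.3 and 27.9 CPM in RANKL libraries, against 43.0, 44.7 and 36.8 CPM in controls, with no overlap at either width and log2 ratios of −0.93 and −0.68.

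**Figure D4:**
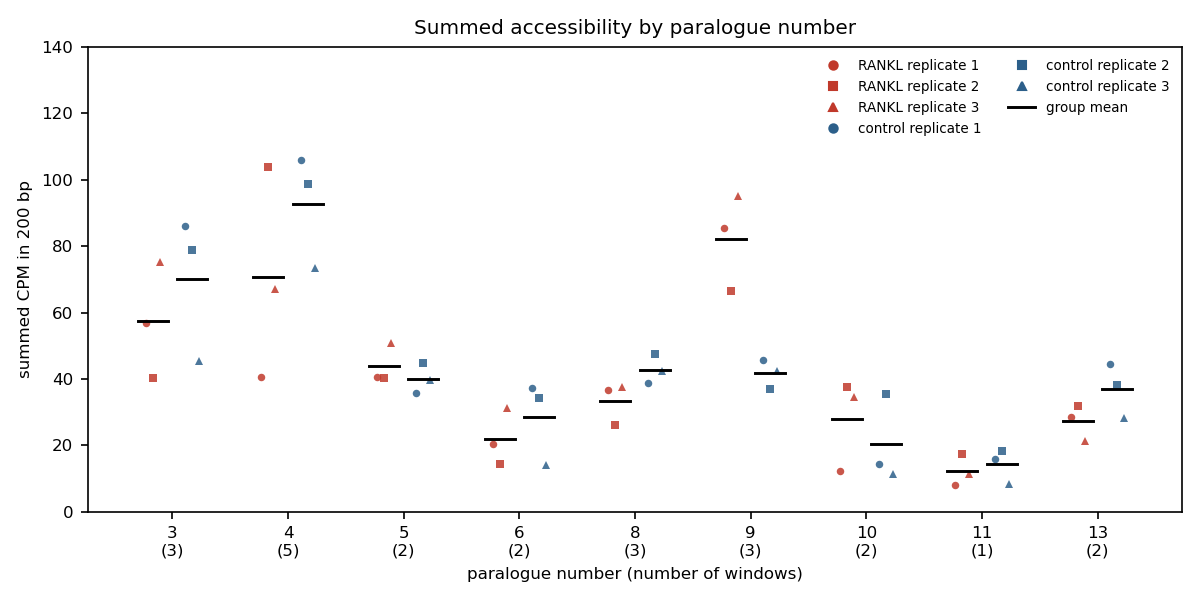
Summed CPM in 200 bp by paralogue number, from 3 to 13, over all clusters (x axis, with the number of windows in brackets); red is RANKL, blue is control, and bars are group means. At number 9 the RANKL libraries lie at 66.4 to 95.03 CPM and the controls at 36.8 to 45.8 CPM; at most other numbers the groups overlap.

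The genes that act with or on the Hox genes were tested in the same gene fit, in lists that were chosen with earlier results of these data known. Of the 11 listed TALE family genes, which take in Tgif genes beside the Pbx, Meis and Pknox partners, 8 were deep enough to test. Of these, 1 was higher and 2 were lower. Pknox1 held 114, 170 and 115 CPM in RANKL libraries, against 61.6, 84.2 and 87.7 CPM in control libraries (log2 fold change 0.71 ± 0.21, SE; edgeR, adjusted p = 0.00718). Meis2 was lower, with 102, 115 and 131 CPM in RANKL libraries, against 200, 150 and 158 CPM in controls (−0.58 ± 0.17, SE; edgeR, adjusted p = 0.00856). Tgif1, a repressor of the same family, was lower as well (−0.50 ± 0.14, SE; edgeR, adjusted p = 0.00419).

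Of the 13 Cdx and retinoic acid genes, 11 were tested, none was higher and 1 was lower. This was Aldh1a1, an enzyme that makes retinoic acid, with 167, 165 and 172 CPM in RANKL libraries, against 258, 282 and 311 CPM in control libraries (log2 fold change −0.80 ± 0.14, SE; edgeR, adjusted p = 1.1e-06). The groups were far apart. Cdx1 and Cdx2, the intestinal Cdx factors, were not called, with log2 fold changes of −0.28 and −0.19 (edgeR, adjusted p = 0.288 and 0.416).

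Of the 24 Polycomb and Trithorax genes, 19 were tested, of which 1 was higher and 1 lower, and both belong to the Polycomb complex that methylates histone H3. Ezh1, a methyltransferase, held 61.0, 57.7 and 68.8 CPM in RANKL libraries, against 30.1, 19.7 and 39.6 CPM in controls (log2 fold change 1.09 ± 0.33, SE; edgeR, adjusted p = 0.012). Eed, the subunit that binds the mark, held 81.4, 80.8 and 105 CPM in RANKL libraries, against 189, 157 and 147 CPM in controls (−0.92 ± 0.19, SE; edgeR, adjusted p = 3.59e-05). Neither gene had overlapping groups. Of 16 genes that flank the clusters, 10 were tested and 1 was higher, Atp5g1 near Hoxb, with 167, 124 and 111 CPM in RANKL libraries and 93.1, 73.7 and 59.4 CPM in controls (0.65 ± 0.21, SE; edgeR, adjusted p = 0.0156). The counts of these lists stand against the 7.02% of genes called higher and 8.30% called lower in this fit.

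Hox genes are also used by mesenchyme, and markers of other cell types were read beside them. Of the 11 mesenchymal markers, 9 had a window and summed to 285, 309 and 346 CPM in RANKL libraries, against 296, 288 and 238 CPM in control libraries. The groups overlapped; 5 were tested and Pdgfrb was higher (log2 fold change 1.71 ± 0.46, SE; edgeR, adjusted p = 0.00331), with 24.4, 46.2 and 55.7 CPM in RANKL libraries and 21.5, 11.8 and 0 CPM in controls, while Lum and Twist1 had no window. The endothelial markers, all 4 with a window, summed to 150 to 213 CPM in RANKL libraries and 146 to 216 CPM in controls, with Cdh5 higher (1.03 ± 0.36, SE; edgeR, adjusted p = 0.0338) among 3 tested. The 4 of 8 immune markers with a window summed to 122 to 172 CPM in RANKL libraries and 117 to 175 CPM in controls, and 2 of 5 neural markers to 42.6 to 102 CPM and 57.3 to 80.2 CPM; none of the 3 and 1 tested was called. Those with no window included Cd3e, Cd79a, Lyz2, Sox10 and Elavl4.

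Of the genes that mark segments of the gut, Gata4 and Pdx1, of the proximal small intestine, were not called, with log2 fold changes of 0.03 and 0.18. Of 3 listed markers of the distal small intestine, 3 were tested, of which 1 was called lower and 0 higher (edgeR). The lower gene is not reported here by name. The others, Fabp6, which binds bile acids, and Slc10a2, their transporter, were not called, with log2 fold changes of −0.46 and 0.04. The colon list of 3 symbols shares the lower gene, and no other symbol of that list was tested. Over all tested genes 8.30% were called lower. The part of M cells, mesenchyme or segment identity in the values at Hoxb9 and Hoxd4 was not tested.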

How the data were processed

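Mouse organoid ATAC-seq libraries, from 50000 cells each and sequenced at 38 bp per the labels' protocols, comprised 3 treated with RANKL and 3 controls, as labelled. The main measurement was the whole-number read counts that the authors deposited for 55056 windows of 200 bp. For 2 kb around each centre the authors gave a score instead; its steps fit ln(count + 1) after centring and scaling each library, and 100% of the 2-kb counts recovered on that basis lay within 0.05 of a whole number. The submitters' processing notes list MACS2 2.2.7, DESeq2 1.34.0, Picard, fastp 0.20.1 and BWA 0.7.17 with no role for each; how windows were chosen and reads counted, and whether duplicates were removed or read ends shifted for the Tn5 cut, is not given in the sources used here. Intervals treat reads as independent and cover counting error only.

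Positions are printed counted from 1, the deposited starts being read as counted from 0. Each window was assigned to the nearest protein-coding gene end in RefSeq's GRCm38.p6 table within 50 kb of its centre. Windows, sums per gene and 2-kb counts were tested over the whole table by edgeR 4.0.16 (R 4.3.3), with a robust quasi-likelihood fit without covariates after TMM scaling and filterByExpr, calls being made at a Benjamini-Hochberg adjusted p of at most 0.05; SE was derived from the F statistic and the log2 fold change. CPM uses edgeR's library sizes, summed over the windows that passed the filter, times TMM factors, separately for 200-bp and 2-kb counts. DESeq2 1.42.0, other scaling, no filter, other distance limits, 2-kb windows, leaving out each library and a replicate block were alternatives. The fits were tested on simulated data.

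The labels give each library an experiment number from 1 to 3 in both groups, and the series' design text speaks of 3 differentiation experiments. The numbers were therefore used as pairs in the replicate-block alternative, and the main fits were unpaired. Neither source says that libraries of one number shared a day or culture. Deviations from the group means, over the tested windows, correlated at −0.03, 0.02 and −0.01 between same-numbered libraries. Between the others they correlated at −0.03 to 0.03. At this depth counting error could hide a pairing, so these values do not settle whether there was one. The genes described by rule were every called Hox gene and window, the 3 Hox genes and 2 windows of highest mean CPM in each cluster, and called members of the other lists; the other Hox genes and windows with values were added after the values were seen. Some genes that the rule or the lists name are not reported here, and their windows remain in the counts and sums. The members and lists were chosen with earlier results of these data known. Overlapping gene bodies and antisense RNAs in the clusters cannot be told apart by these windows.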

Additional observations from a re-analysis of the deposited data

How the results depend on the processing

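Directions of the sums by cluster and zone, and of Hoxb9 and Hoxd4, held under other scaling (RLE size factors or library totals). The number of Hox windows called higher was 0 with DESeq2 and with the replicate block, and 0 to 1 when each library was left out; the number of Hox genes called higher was 0 with DESeq2, with the replicate block, and with windows within 5 kb or within 1 kb of a gene end, and 0 to 1 when each library was left out. With 2-kb counts, with or without loess offsets, the number of windows and of genes called lower was 1 (Hoxd4) in place of 0. In the 2-kb fits, the counts called higher and lower were each 0 to 1 when each library was left out, and the replicate block changed no call there.

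With windows within 5 kb, the anterior sum had a log2 ratio of 0.13 and the posterior sum 0.70; within 1 kb the posterior sum was 1.05, over fewer windows by construction. The gene Hoxa4, main value 0.04, was −0.48 without RANKL replicate 2, −0.01 without control replicate 1 and −0.0055 without control replicate 3, within a range of −0.48 to 0.25 when each library was left out. The cause was not tested for any of these. The alternatives on the 2-kb fits and on the zone and paralogue sums were chosen after seeing the data. At this depth, 16 of 26 Hox windows could not be tested at 200 bp.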
